A study of Homo sapiens with 4 samples.

Results

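The proteasome is the protease that degrades ubiquitin-tagged proteins, and its genes were read here in MHCC-97H cells, a metastatic line established from HCC. Its members were taken by name: protein-coding genes whose symbol starts with PSMA to PSMG and a digit, which gave 49 of the 58735 genes in the files. PSMC3IP, a recombination factor, matched by its name alone and was set aside, leaving 48 genes of the proteasome. Of these, 46 reached at least 10 reads in at least 1 library and were compared between libraries. PSMA8, a testis form of an alpha subunit, and PSMB11, the catalytic subunit of the thymus, had 0 reads in all 4 libraries.

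RNA-seq was performed with 1 library per condition. All cells were MHCC-97H labelled wild type and of the same batch, and they were given PBS or 2 μg of migrasomes (Migs), vesicles that migrating cells leave on their retraction fibers, for 24 h. Normo-Migs came from MHCC-97H cells in normoxia, hypo-Migs from the same line in hypoxia, and CD147KO-Migs from CD147 knockout MHCC-97H cells in hypoxia. For normo-Migs the labels and the supplementary methods give normoxia, whereas the main methods text gives hypoxia, and the labels were followed. CD147 was deleted only in the cells that released the Migs, so its reads in the sequenced cells give no check of the knockout. The knockout line was supplied by an academic laboratory, and whether it is 1 clone is not given in the sources used here. Reads on genes numbered 33882496 in the PBS library, 34559968 under normo-Migs, 40285223 under hypo-Migs and 35043203 under CD147KO-Migs.

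Without replicates, no difference could be set against the spread between cultures, and no test between conditions was possible. Log2 fold changes were therefore computed after TMM scaling with a prior count of 2 and read against size limits of 1.5-fold and 2-fold. Intervals are 95% intervals of counting error only, since no molecular identifiers are described and several reads can come from 1 molecule. FPKM, the authors' reads scaled by gene length and library size, was used where levels of different proteasome genes were compared. The marker lists are summed and ranked by reads.

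The PBS library stood apart from the others. In it, 251 genes that reached 100 reads or more in each Mig library had 3 or fewer, whereas each Mig library had 0 such genes against the other libraries. The treatment and that library cannot be told apart in any comparison with PBS, and the 3 comparisons with PBS share that library. Whether its cells were of the same stock as those of the other libraries was not tested. Of 16 hepatocyte markers, ALB, AFP, APOB, TTR and GPC3 had 0 reads in every library. The keratin gene KRT8 had the most reads, from 3116 reads per 1000000 (CPM) with PBS to 4495 CPM under CD147KO-Migs. By FPKM, the keratin gene KRT18 was above KRT8 under hypo-Migs (607 against 602). In all, 11 of these markers had 0 reads with PBS and 7, 6 and 6 under normo-, hypo- and CD147KO-Migs. Among those at 0 with PBS, the fibrinogen genes FGB and FGA had 561, 827 and 832 reads and 395, 493 and 462 reads under the 3 kinds of Migs, and the liver factor FOXA2 had 60, 43 and 41. SERPINA1, the gene of alpha-1 antitrypsin, went the other way, with 25 reads with PBS and 2, 9 and 10 with Migs.

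The 20S core particle of the proteasome is a barrel of alpha and beta rings. PSMB5, PSMB6 and PSMB7 carry the chymotrypsin-like, caspase-like and trypsin-like activities. Under interferon gamma, PSMB8, PSMB9 and PSMB10 take the places of PSMB5, PSMB6 and PSMB7, respectively, and the resulting immunoproteasome cuts many of the peptides that MHC class I presents. The 19S cap, made of ATPases (PSMC) and other subunits (PSMD), binds and unfolds tagged proteins. PSME1 and PSME2 form another cap, PA28, which interferon gamma also induces.

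Among the immunoproteasome subunits, PSMB9 was higher in each Mig library than with PBS, whereas PSMB8 and PSMB10 were not. The promoters of these 3 genes and of PSME1 and PSME2 are shown because their letters can be set beside the levels of genes that share an inducer. Each is read 5′ to 3′ from RefSeq on GRCh38.p14, from 120 bases before the transcript start to 20 bases into the transcript. Capitals mark the letters of the core of an interferon-stimulated response element (ISRE, GAAANNGAA) or of an interferon gamma-activated site (GAS, TTCNNNGAA), on either strand. The windows lie at chr6:32844028-32844167 (minus strand) for PSMB8, chr6:32854072-32854211 (plus) for PSMB9, chr16:67936831-67936970 (minus) for PSMB10, chr14:24136074-24136213 (plus) for PSME1 and chr14:24146591-24146730 (minus) for PSME2.
PSMB8: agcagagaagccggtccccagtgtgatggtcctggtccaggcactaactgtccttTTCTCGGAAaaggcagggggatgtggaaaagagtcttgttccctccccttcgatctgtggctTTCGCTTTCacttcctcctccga
PSMB9: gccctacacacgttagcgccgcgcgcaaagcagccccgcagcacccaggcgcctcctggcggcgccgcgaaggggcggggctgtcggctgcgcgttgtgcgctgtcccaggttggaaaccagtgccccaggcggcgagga
PSMB10: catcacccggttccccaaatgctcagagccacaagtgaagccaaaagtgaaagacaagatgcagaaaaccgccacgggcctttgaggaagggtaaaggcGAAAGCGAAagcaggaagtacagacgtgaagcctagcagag
PSME1: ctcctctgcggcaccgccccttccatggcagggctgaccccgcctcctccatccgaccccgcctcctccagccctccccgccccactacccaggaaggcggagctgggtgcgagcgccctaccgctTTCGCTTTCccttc
PSME2: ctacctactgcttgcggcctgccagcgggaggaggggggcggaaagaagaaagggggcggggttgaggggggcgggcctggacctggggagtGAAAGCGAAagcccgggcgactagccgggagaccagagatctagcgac

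The same ISRE letters, GAAAGCGAA or their reverse complement TTCGCTTTC, stood within 30 bases of the start in PSMB8, PSMB10, PSME1 and PSME2. In PSMB10 they ran from 21 to 13 bases before the start and in PSME2 from 28 to 20 bases before it. In PSME1 they lay at bases 7 to 15 of the transcript, and in PSMB8 they began 3 bases before the start shown, 1 of its 2 starts in RefSeq. PSMB8 also held GAS letters from 65 to 57 bases before that start. The window at its other start, not shown, held neither ISRE nor GAS letters. PSMB9 held neither set of letters, which says only that they are not in this window. The genes with ISRE letters included PSME1 and PSME2, which were past 2-fold in each Mig library, as well as PSMB8 and PSMB10, which were not.

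RefSeq windows of 300 bases, from 250 before the start to 50 after it, were available for 43 of the 49 members (53 windows), PSMB6 and PSMB7 not among them. The ISRE core was present in 8 of the 43 members and in 8.11% of 35116 promoters, and the GAS letters in 8 members and 7.66% of promoters. The antioxidant element that NFE2L1-type factors bind (TGACNNNGC) was found in 15 members and 13.3% of promoters. CCAAT was found in 21 members and 34.6% of promoters, and the SP1 box GGGCGG in 30 and 45%. An NF-kB motif was in 12 members and 25.6% of promoters, the E-box CACGTG in 3 and 7.26%, and TATAAA in 5 and 11.5%. All were searched on both strands, and a match is a run of letters, not a measured site. ISRE and GAS letters can overlap each other, and members with several windows counted once.

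PSMB9 (ENSG00000240065, chr6:32844136-32859585, plus strand) had 232 reads with PBS, 664 under normo-Migs, 901 under hypo-Migs and 912 under CD147KO-Migs. The PBS library was the lowest of the 4. The log2 fold changes against PBS were 1.53 (1.32 to 1.76) under normo-Migs, 1.73 (1.53 to 1.95) under hypo-Migs and 1.95 (1.74 to 2.17) under CD147KO-Migs. In FPKM, PSMB9 stood at 2.18 with PBS and at 6.29, 7.24 and 8.4 in the same order of Mig libraries. It was the lowest of the 6 catalytic subunits with PBS and the second lowest in each Mig library, where it passed PSMB10.

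PSMB8 (ENSG00000204264, chr6:32840717-32844703, minus strand) was the most abundant immunoproteasome subunit in every library. Its reads were 2579 with PBS, 2311 under normo-Migs, 2656 under hypo-Migs and 2950 under CD147KO-Migs, and its FPKM was 24.9, 22.4, 21.9 and 27.8. The log2 fold changes against PBS had both signs: -0.14 under normo-Migs, -0.18 under hypo-Migs and 0.17 under CD147KO-Migs. None reached 1.5-fold. PSMB8 and PSMB9 are neighbours on opposite strands and share 139 exon bases, and PSMB8 also shares 618 bases with PSMB8-AS1, an antisense RNA. How reads were assigned by strand is not given in the sources used here, so reads of such overlaps cannot be told apart.

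PSMB10 (ENSG00000205220, chr16:67934502-67937087, minus strand) had few reads: 261 with PBS, 202 under normo-Migs, 164 under hypo-Migs and 222 under CD147KO-Migs. The hypo-Migs library was the lowest. Against PBS its log2 fold changes were -0.35 (-0.62 to -0.08), -0.88 (-1.18 to -0.60) and -0.25 (-0.52 to 0.01) for normo-Migs, hypo-Migs and CD147KO-Migs. Of its coding bases, 58.3% are also exons of AC040162.1, a gene on the same strand with 87, 40, 88 and 61 reads in the order PBS, normo-Migs, hypo-Migs and CD147KO-Migs. Reads of PSMB10 and AC040162.1 could be split or dropped by the counting, so the level of PSMB10 is uncertain.

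The constitutive subunits were far more abundant. PSMB5 (ENSG00000100804) had 5102 reads with PBS, 7006 under normo-Migs, 7711 under hypo-Migs and 6717 under CD147KO-Migs. It was higher than with PBS in each Mig library, by 0.38 to 0.48 on the log2 scale, which is below 1.5-fold. PSMB6 (ENSG00000142507) had 6953, 4845, 4999 and 4803 reads in the same order and was lower than with PBS, by a log2 fold change of -0.50, -0.69 and -0.55. Only the hypo-Migs value passed 1.5-fold. PSMB7 (ENSG00000136930) had 7649, 6154, 7010 and 5966 reads and log2 fold changes of -0.30, -0.34 and -0.38. The constitutive subunits thus did not move as a block: PSMB5 was higher and its partners were lower in each Mig library.

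By FPKM, PSMB6 led the constitutive subunits with PBS (139), followed by PSMB7 (124) and PSMB5 (83.6). With Migs the order was turned, and PSMB5 led with 115 in normo-Migs and 108 in both hypo-Migs and CD147KO-Migs. PSMB6 was then the lowest of these subunits, at 97.4, 85.3 and 93.8. Every immunoproteasome subunit stayed below every constitutive subunit in all 4 libraries.

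**Figure D1:**
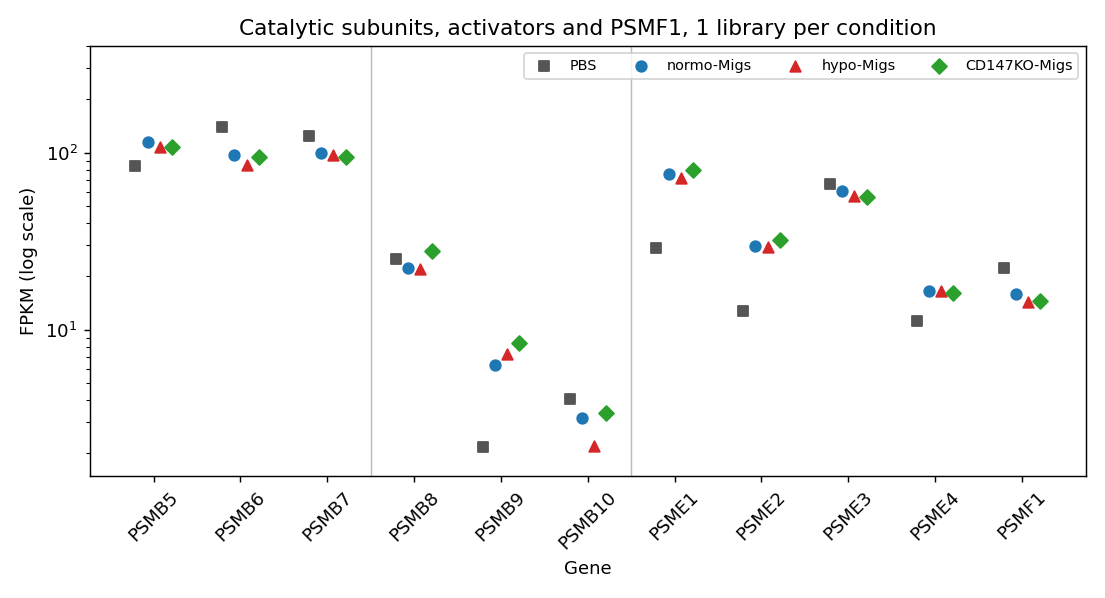
FPKM on a log axis of the constitutive catalytic subunits (left), the immunoproteasome subunits (middle), and the activators with the inhibitor PSMF1 (right), with 1 point per library and no error bars because each condition had 1 library. PSMB9, PSME1 and PSME2 sit lowest in the PBS library, whereas PSMB6, PSMB7 and PSMF1 sit highest there.

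Each immunoproteasome subunit was then divided by the subunit it replaces, a ratio that does not depend on how libraries are scaled. PSMB8 was 0.298 of PSMB5 by FPKM with PBS (0.284 to 0.312), 0.194 under normo-Migs (0.185 to 0.204), 0.203 under hypo-Migs (0.194 to 0.212) and 0.259 under CD147KO-Migs (0.248 to 0.27). It was lower in each Mig library, and the change was 0.653 times for normo-Migs (0.61 to 0.698), 0.681 times for hypo-Migs (0.638 to 0.727) and 0.869 times for CD147KO-Migs (0.814 to 0.927). On the log2 scale, PSMB5 differed from PBS by more than PSMB8 did in each Mig library.

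PSMB9 was 0.0157 of PSMB6 with PBS (0.0137 to 0.0179), 0.0646 under normo-Migs (0.0595 to 0.0701), 0.085 under hypo-Migs (0.0791 to 0.0912) and 0.0895 under CD147KO-Migs (0.0833 to 0.0961). The ratio was 4.11 times that of PBS under normo-Migs (3.51 to 4.81), 5.4 times under hypo-Migs (4.65 to 6.3) and 5.69 times under CD147KO-Migs (4.9 to 6.63). Both genes contributed, PSMB9 by being higher and PSMB6 by being lower. PSMB6 still exceeded PSMB9 by 11.2 times in the CD147KO-Migs library and by 63.6 times with PBS.

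PSMB10 was 0.0329 of PSMB7 with PBS (0.029 to 0.0372), 0.0317 under normo-Migs (0.0274 to 0.0364), 0.0226 under hypo-Migs (0.0192 to 0.0263) and 0.0359 under CD147KO-Migs (0.0312 to 0.041). Only the hypo-Migs library was apart, at 0.686 times the PBS ratio (0.559 to 0.839). The intervals for normo-Migs (0.794 to 1.16 times) and CD147KO-Migs (0.905 to 1.31 times) included no change. Summed over the 6 catalytic genes, the immunoproteasome share of FPKM was 8.25% with PBS, 9.25% under normo-Migs, 9.75% under hypo-Migs and 11.8% under CD147KO-Migs. The immunoproteasome sum itself was 31.1, 31.9, 31.3 and 39.6 FPKM in that order, and the constitutive sum was 346, 313, 290 and 296. Under normo- and hypo-Migs the share was thus higher mainly because the constitutive sum was lower.

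**Figure D2:**
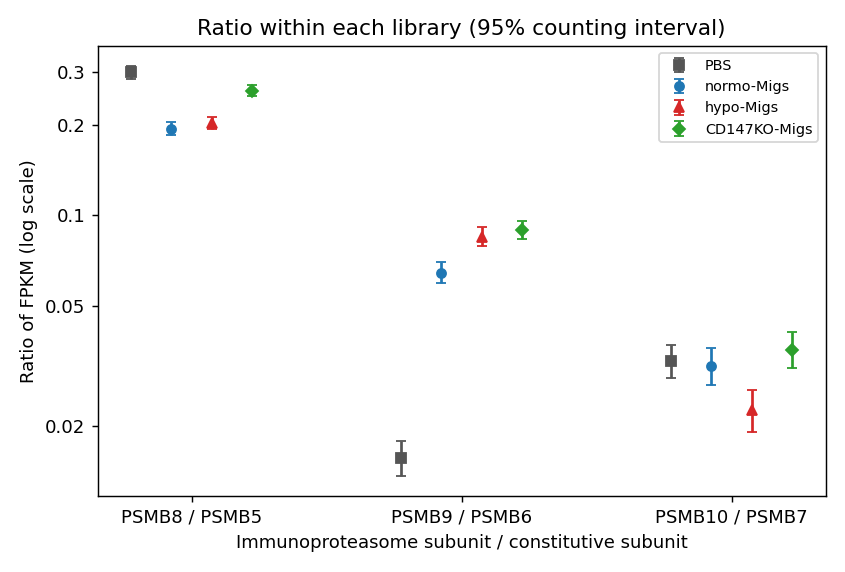
Ratio of FPKM (log axis) of each immunoproteasome subunit to the constitutive subunit it replaces, within each library, with bars for the 95% interval of counting error. The PSMB9 to PSMB6 ratio is lowest with PBS (0.0157), the PSMB8 to PSMB5 ratio is highest there (0.298), and the PSMB10 to PSMB7 ratio is lowest under hypo-Migs (0.0226).

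Among the activators, PSME1 and PSME2 were higher in each Mig library, and to a like degree. PSME1 (ENSG00000092010) had 1771 reads with PBS, 4645 under normo-Migs, 5151 under hypo-Migs and 5030 under CD147KO-Migs, with log2 fold changes of 1.41, 1.32 and 1.48. PSME2 (ENSG00000100911) had 1580, 3634, 4241 and 4051 reads and log2 fold changes of 1.22, 1.21 and 1.34. Their combined FPKM was 41.5 with PBS and 105, 101 and 112 under normo-Migs, hypo-Migs and CD147KO-Migs. PSME1 exceeded PSME2 by 2.25 times in FPKM with PBS and by 2.44 to 2.57 times with Migs, so that the balance of the PA28 subunits moved little. The genes lie on chr14 on opposite strands, 4394 bases apart. PSME2 shares 216 exon bases with RNF31 on the opposite strand, which had 738 reads with PBS and 1014 to 1164 with Migs.

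PSME3, which forms the nuclear PA28 gamma cap, had 11823 reads with PBS, 10805 under normo-Migs, 11864 under hypo-Migs and 10189 under CD147KO-Migs. Its log2 fold changes of -0.11, -0.21 and -0.24 were opposite in sign to those of PSME1 and PSME2. PSME4, the PA200 activator, had 3982, 5850, 6836 and 5826 reads, and its log2 fold changes of 0.57, 0.56 and 0.53 lay just below 1.5-fold. PSMF1, an inhibitor of the 20S core, had 4096, 2879, 3070 and 2740 reads. It was lower in each Mig library, with log2 fold changes of -0.49, -0.63 and -0.60, and passed 1.5-fold under hypo-Migs and CD147KO-Migs.

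Most genes of the 19S cap were lower with Migs. Of its 17 genes, 15 were lower than with PBS under normo-Migs, 15 under hypo-Migs and 16 under CD147KO-Migs, with median log2 fold changes of -0.27, -0.43 and -0.40. The medians over all 19895 genes tested were 0.03, 0.04 and 0.03. At least 1.5-fold lower were 5, 7 and 7 of the 17, against 21.5%, 21.1% and 21.6% of all genes tested and 13.3%, 14% and 13.7% of the protein-coding genes that averaged 10 CPM or more, as all 17 did. These differences were not tested. PSMC6, an ATPase, was the exception in each Mig library, with log2 fold changes of 0.33, 0.15 and 0.14. The other exception was PSMD8, at 0.12 under normo-Migs and 0.03 under hypo-Migs.

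PSMD2, the cap gene with the highest FPKM with PBS (149) and a scaffold that binds ubiquitin-like domains, had 28090 reads with PBS, 16491 under normo-Migs, 18485 under hypo-Migs and 15906 under CD147KO-Migs. Its log2 fold changes were -0.75, -0.82 and -0.84, and in each Mig library PSMC3, an ATPase, had the higher FPKM (96, 87.9 and 88, against 88, 83.7 and 82.5 for PSMD2). PSMD11 had 13002, 7857, 8774 and 7445 reads (-0.71, -0.79 and -0.83). These lid and base genes were highest with PBS, with the Mig libraries close to each other. PSMD13, a lid subunit, had 7255, 4531, 4962 and 3982 reads (-0.66, -0.77 and -0.89). PSMD7, the partner of the deubiquitinase PSMD14, had 3136, 2110, 2301 and 1986 reads (-0.55, -0.66 and -0.68). PSMD14 itself had log2 fold changes of -0.27, -0.34 and -0.40, all below 1.5-fold.

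Among the ATPases, PSMC4 had 7657 reads with PBS, 4960 under normo-Migs, 5317 under hypo-Migs and 4858 under CD147KO-Migs (-0.61, -0.74 and -0.68). PSMC2 had 8773, 5946, 6759 and 5894 reads (-0.54, -0.59 and -0.59). PSMC1 had 3095, 1969, 2316 and 1942 reads (-0.63, -0.64 and -0.69). All 3 were highest with PBS. For PSMC1, 75.8% of exon bases are shared with NRDE2 on the opposite strand, which had 730 reads with PBS and 865, 937 and 855 with Migs. The ATPases of the cap summed to 335 FPKM with PBS and to 265, 244 and 247 under normo-Migs, hypo-Migs and CD147KO-Migs. The non-ATPase genes of the cap summed to 584 FPKM with PBS and to 447, 419 and 408.

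Of the 7 alpha-ring genes tested, 1, 2 and 2 were at least 1.5-fold higher under normo-, hypo- and CD147KO-Migs than with PBS. The shares of all genes tested were 26.8%, 27.6% and 27.2%. At least 1.5-fold lower were 0 of the 7, against 21.5%, 21.1% and 21.6% of all genes. PSMA3 had 3228 reads with PBS, 4731 under normo-Migs, 5847 under hypo-Migs and 5115 under CD147KO-Migs, with log2 fold changes of 0.57, 0.64 and 0.64. PSMA6 had 152, 246, 334 and 309 reads (0.71, 0.91 and 0.99). PBS was the lowest library for both genes. PSMA7, the most abundant proteasome gene in every library, had FPKM of 209, 213, 215 and 211 and log2 fold changes of 0.03 to 0.05. PSMA4 was at 0.35, 0.27 and 0.26 and PSMA5 at 0.12, 0.07 and 0.05. PSMA1 was at 0.00, 0.16 and -0.01. PSMA2 was lower in each Mig library, by -0.25, -0.39 and -0.45, from 313 reads with PBS.

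In the beta ring, PSMB1 (0.39, 0.38 and 0.26) and PSMB3 (0.33, 0.23 and 0.22) had positive log2 fold changes, and PSMB2 (-0.33, -0.38 and -0.47) and PSMB4 (-0.04, -0.13 and -0.05) negative ones. None passed 1.5-fold in either direction, whereas 9614, 9696 and 9704 of all 19895 genes tested did. Among the protein-coding genes that averaged 10 CPM or more, the shares were 31.2%, 32.3% and 32.2%. The 20S core without the immunoproteasome had 14 genes tested, with medians of 0.08, 0.12 and 0.04 for normo-Migs, hypo-Migs and CD147KO-Migs. The core thus stood near the median of all genes while the cap stood below it. Of the 7 assembly chaperones, 0 were at least 1.5-fold higher, against 26.8%, 27.6% and 27.2% of all genes tested, and 0 at least 1.5-fold lower, against 21.5%, 21.1% and 21.6%. PSMG2 was the highest, at 0.49, 0.48 and 0.46. PSMD10, also a chaperone of the ATPases, was the lowest, at -0.38, -0.47 and -0.52.

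**Figure D3:**
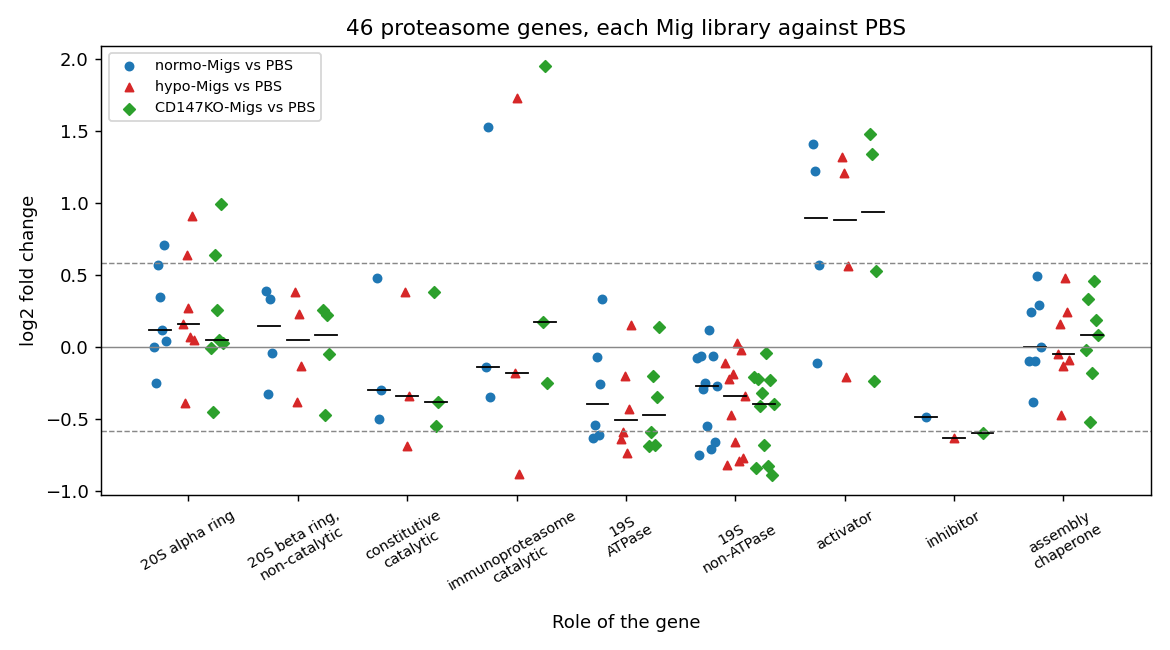
Log2 fold change of each of the 46 proteasome genes in each Mig library against PBS, by role. Black bars are medians and dashed lines mark 1.5-fold. PSMB9 (1.53 to 1.95), PSME1 and PSME2 stand highest, and the 19S columns lie mostly below 0.

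Over the 46 genes, 4 were at least 1.5-fold higher under normo-Migs than with PBS, against 26.8% of all genes tested, 5 under hypo-Migs, against 27.6%, and 5 under CD147KO-Migs, against 27.2%. At least 1.5-fold lower were 5 under normo-Migs, against 21.5%, 10 under hypo-Migs, against 21.1%, and 8 under CD147KO-Migs, against 21.6%. Past 2-fold were 3 genes in each Mig library, PSMB9, PSME1 and PSME2, against 30.2%, 30.5% and 30.3% of all genes. Many of the genes tested have few reads. Among the 9586 protein-coding genes that averaged 10 CPM or more, 18% to 18.5% were at least 1.5-fold higher, 13.3% to 14% at least 1.5-fold lower and 13.1% to 13.5% past 2-fold against PBS. The share of lower proteasome genes was near or below that of all genes tested in each Mig library. Beside the well-read coding genes it was below under normo-Migs and above under hypo-Migs and CD147KO-Migs, with PSMB10, itself under 10 CPM on average, among the 10 under hypo-Migs. These differences were not tested either. Altogether the 48 proteasome genes took 0.768% of reads on genes with PBS, 0.679% under normo-Migs, 0.653% under hypo-Migs and 0.653% under CD147KO-Migs.

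The question of the study design, whether Migs from hypoxia or with CD147 act differently, is addressed by the pairs of Mig libraries, which do not use PBS. From normo-Migs to hypo-Migs, 0 of the 46 genes passed 1.5-fold in either direction, against 18.2% of all genes tested. Between hypo-Migs and CD147KO-Migs, 1 gene passed, PSMB10, against 18.4%. Between normo-Migs and CD147KO-Migs, 0 passed, against 18.5%. This last pair differs in both the oxygen and the CD147 of the cells that released the Migs, so it separates neither. The protein-coding genes that averaged 10 CPM or more passed in 0.156%, 0.177% and 0.261% of cases. Most genes past the limit in these pairs were thus outside that set, either non-coding or with fewer reads, and beside that set the family was not unusual in staying within it.

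PSMB10 was the gene that passed: its log2 fold change under hypo-Migs was -0.63 (-0.93 to -0.34) against CD147KO-Migs and -0.53 (-0.84 to -0.23) against normo-Migs. On log2(FPKM + 1) the first difference was -0.46, short of 1.5-fold, so that 0 genes passed. PSMB10 rested on 164 reads under hypo-Migs and carries the overlap with AC040162.1 described above. PSMB8 was lower under hypo-Migs than under CD147KO-Migs, by -0.35 (-0.42 to -0.27), and lower under normo-Migs, by -0.31 (-0.39 to -0.23). For PSMB9 the corresponding values were -0.21 (-0.35 to -0.08) and -0.42 (-0.56 to -0.27). All 3 immunoproteasome subunits thus had their highest level among the Mig libraries under CD147KO-Migs, although for PSMB10 the interval against normo-Migs, -0.38 to 0.18, included 0. PSMB5 and PSMB7 differed by at most 0.10 in size on the log2 scale in the same pairs, and PSMB6 was -0.19 under hypo-Migs against normo-Migs.

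The ratio of PSMB8 to PSMB5 under hypo-Migs was 0.784 times that under CD147KO-Migs (0.737 to 0.835), and 1.04 times that under normo-Migs (0.979 to 1.11). The ratio of PSMB9 to PSMB6 under hypo-Migs was 0.949 times that under CD147KO-Migs (0.858 to 1.05) and 1.32 times that under normo-Migs (1.18 to 1.47). The PSMB10 to PSMB7 ratio was 0.629 times (0.509 to 0.775) and 0.713 times (0.575 to 0.883). No order of the libraries held for all 3 ratios, other than that CD147KO-Migs was the highest of the Mig libraries in each, and its interval included no change for PSMB9 to PSMB6 against hypo-Migs and for PSMB10 to PSMB7 against normo-Migs (0.723 to 1.08).

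Smaller shifts ran through the cap. With normo-Migs, 17 of 17 cap genes were above CD147KO-Migs, by log2 fold changes of 0.05 to 0.23 with a median of 0.13, and 15 of 17 were above hypo-Migs. Over the 46 proteasome genes, 36 were higher under normo-Migs than under CD147KO-Migs and 38 were lower under hypo-Migs than under normo-Migs, with medians of 0.09 and -0.07, where the medians of all genes were 0.00. These are differences between single libraries, and genes of the same complex are not replicates. The lean of the cap was shared by partner genes read below: 16 of 16 cofactors and shuttles and 5 of 5 ubiquitin and E1 genes were higher under normo-Migs than under CD147KO-Migs. So were 5170 of the 9586 protein-coding genes that averaged 10 CPM or more, but only 4 of 16 antigen-processing and 1 of 12 interferon gamma genes. Hypo-Migs and CD147KO-Migs, the pair that differs in CD147 of the source cells but not in oxygen, differed by a median of 0.01 over the 46 genes. Over the cap the median was 0.02, with 12 of 17 genes higher under hypo-Migs and 5 lower.

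**Figure D4:**
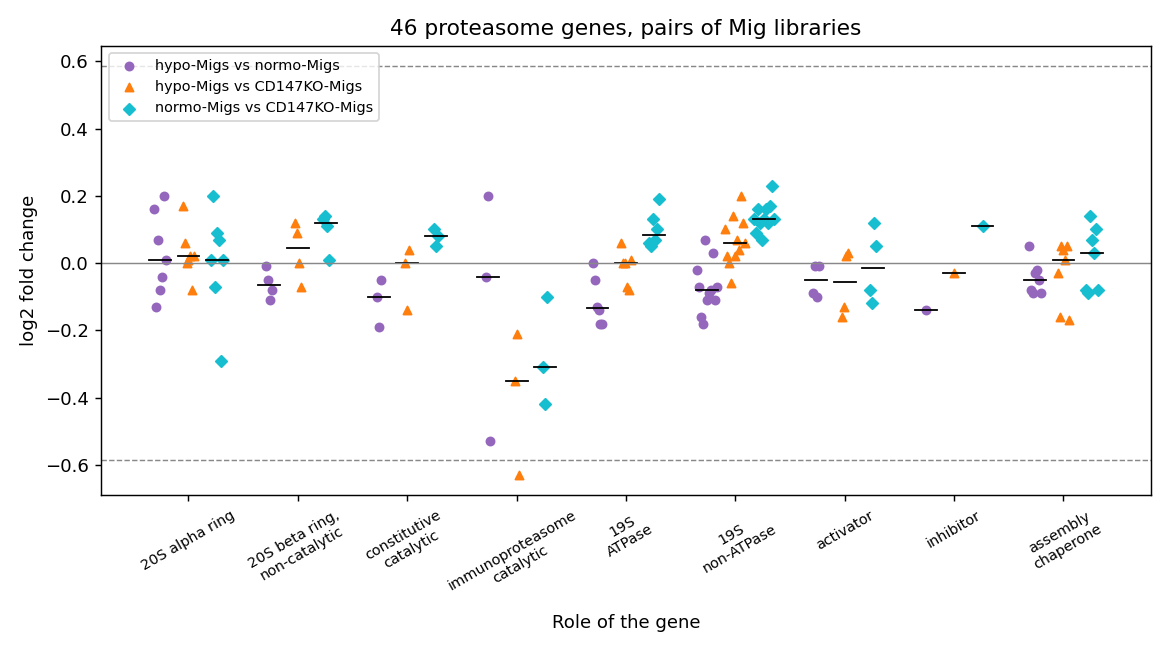
Log2 fold change of the 46 proteasome genes between pairs of Mig libraries, by role, with medians as black bars and dashed lines at 1.5-fold. Values lie within 0.23 of 0 except for immunoproteasome subunits and 1 alpha-ring gene, and PSMB10 in hypo-Migs against CD147KO-Migs (-0.63) is the single point past a dashed line.

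Overlap with other genes varied among the members and bears on how far their reads can be trusted. On GENCODE release 29, whose coordinates matched all 58735 genes in the files, 25 of the 49 members shared no exon base with another gene. In 5 members, at least 50% of coding bases were also exons of another gene: PSMA2 (97.1%), PSMA1 (88.6%), PSMA6 (70.4%), PSMD9 (58.7%) and PSMB10 (58.3%). Their FPKM under hypo-Migs was 1.29, 7.86, 1.27, 1.03 and 2.19, respectively, at the low end of the family, whose median there was 29.4. PSMA1, PSMA2 and PSMA6 are alpha-ring genes, as is PSMA7, whose FPKM was 215 and which shares no base. Genes with little or no shared coding sequence could also be below PSMA1: PSMG4 (6%) was at 3.3, and PSMB9 and PSMD6 (0%) were at 7.24 and 7.65. Whether dropped reads lower the values of the 5 genes was not tested. PSMB5, PSMB6 and PSMB7 share no exon base, PSMB9 and PSME1 share no coding base and PSME2 shares 0.125% of coding bases.

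**Figure D5:**
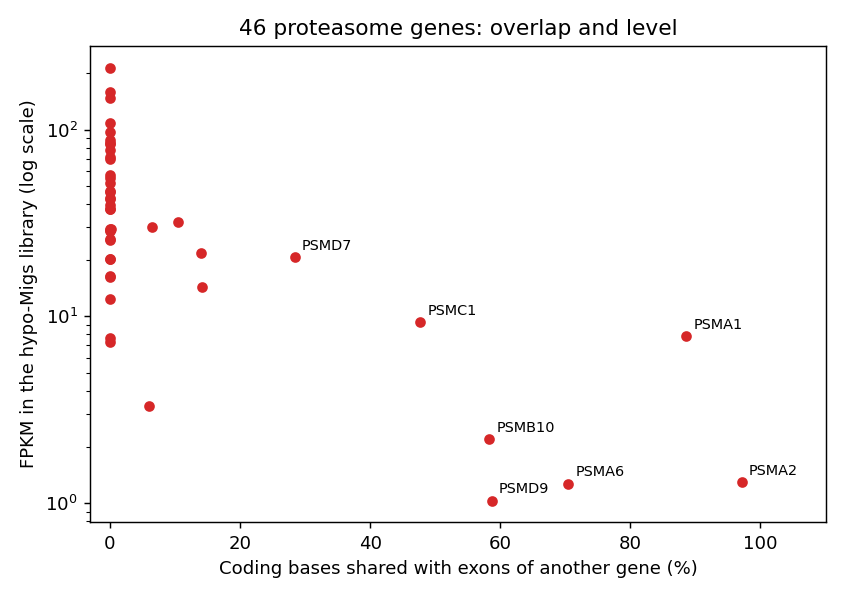
FPKM (log axis) in the hypo-Migs library of the 46 proteasome genes with reads, against the percentage of their coding bases that are exons of another gene. The 5 genes past 50% all lie below 10 FPKM, while genes with no shared coding base range from 7.24 (PSMB9) to 215.

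Copies of the genes elsewhere in the genome took few reads. The 32 pseudogenes named for members summed to 170 reads with PBS, 209 under normo-Migs, 246 under hypo-Migs and 193 under CD147KO-Migs, and 18 of them had 0 in every library. The 49 members together had 260677, 235271, 263945 and 229345 reads. PSMA3-AS1, antisense to the locus of PSMA3, had 531, 864, 938 and 923 reads.

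Genes that work with the proteasome were read from lists written by hand. Of 16 cofactors and shuttles, 2, 1 and 2 were at least 1.5-fold higher and 2, 2 and 3 at least 1.5-fold lower under normo-Migs, hypo-Migs and CD147KO-Migs than with PBS. The shares of all genes were 26.8%, 27.6% and 27.2% higher and 21.5%, 21.1% and 21.6% lower, and the medians of the list were -0.10, -0.17 and -0.22. UCHL5, a deubiquitinase of the 19S cap, had 4941 reads with PBS and 2135, 2513 and 2187 with Migs, with log2 fold changes of -1.19, -1.19 and -1.20. It was the single gene of this list past 2-fold against PBS, where 30.2%, 30.5% and 30.3% of all genes were. UCHL5 moved in the direction of most of the cap. POMP, the chaperone that matures the core, was at 0.26, 0.24 and 0.19. NFE2L1, the factor that drives proteasome genes when the protease is impaired, had 12947, 9698, 10408 and 9029 reads (-0.40, -0.53 and -0.54). Neither NFE2L1 nor NGLY1, the other gene of its list, passed 1.5-fold against PBS, where 9614, 9696 and 9704 of all 19895 genes did.

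In the list of ubiquitin genes and the E1 enzyme, 4, 3 and 3 of 5 were higher than with PBS, where 10356, 10357 and 10213 of all 19895 genes were, with medians of 0.58, 0.47 and 0.55. UBA1, the E1 enzyme that activates ubiquitin, was at 0.66, 0.57 and 0.55. Of VCP, NPLOC4 and UFD1, the unfoldase complex upstream of the proteasome, 1 was at least 1.5-fold lower in each Mig library (21.5%, 21.1% and 21.6% of all genes), NPLOC4 (-0.60, -0.61 and -0.61). VCP itself was at -0.22, -0.29 and -0.30.

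The antigen-processing list, 16 genes that carry proteasome products to the surface, had medians of 0.15, 0.15 and 0.18. At least 1.5-fold higher than with PBS were 3, 4 and 4 of them and at least 1.5-fold lower 4, 4 and 2, against 26.8%, 27.6% and 27.2% of all genes higher and 21.5%, 21.1% and 21.6% lower, so these counts were near the background. HLA-B, a class I heavy chain, had 15735 reads with PBS and 5024, 6004 and 5362 with Migs (-1.63, -1.61 and -1.57). HLA-F had 89, 270, 400 and 370 reads (1.60, 1.93 and 2.01). The class I genes thus lay on both sides of PBS. NLRC5, the transactivator of class I and immunoproteasome genes, had 1597, 2619, 3343 and 3282 reads (0.73, 0.85 and 1.02). TAP1, the peptide transporter whose first base, chr6:32853978 on the minus strand, lies next to the PSMB9 window shown above, had 2763, 2934, 3469 and 3106 reads. Its log2 fold changes of 0.11, 0.11 and 0.15 were far below those of PSMB9. TAP2, next to PSMB8, was lower, at -0.68, -0.75 and -0.55.

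In the list of interferon gamma signalling, 5, 7 and 8 of 12 genes tested were at least 1.5-fold higher under normo-Migs, hypo-Migs and CD147KO-Migs than with PBS against 26.8%, 27.6% and 27.2% of all genes, and 2, 1 and 1 at least 1.5-fold lower, against 21.5%, 21.1% and 21.6%, with medians of 0.56, 0.67 and 0.74. IFNG, the ligand, had 0 reads in every library, which allows up to 0.0885 CPM with PBS. IFNGR1, the chain of its receptor that binds it, had 1264, 2556, 3090 and 2579 reads (1.03, 1.07 and 1.01). The other chain, IFNGR2, went the opposite way, with 1063, 560, 729 and 659 reads (-0.90, -0.76 and -0.71). JAK2, the receptor kinase, had 240, 576, 670 and 648 reads (1.27, 1.26 and 1.40). IRF1, a factor that binds ISRE letters, had 422, 918, 1187 and 1050 reads (1.14, 1.27 and 1.29). Of the 12 genes, 9, 9 and 10 were higher than with PBS, where 10356, 10357 and 10213 of all 19895 genes were. STAT3 lay near PBS (-0.08, -0.04 and 0.03), and SOCS1 was lower (-1.48, -0.36 and -0.30). A link of these genes to PSMB9, PSME1 and PSME2 was not tested. SOCS3, a feedback inhibitor of JAK kinases, had 246, 1935, 2373 and 2314 reads (2.98, 3.04 and 3.20), the largest log2 fold change against PBS among the listed partner genes. In each pair of Mig libraries 1 of the 12 genes passed 1.5-fold, against 18.2% to 18.5% of all genes. SOCS1, another feedback inhibitor, with 8, 23 and 21 reads under normo-, hypo- and CD147KO-Migs, was 1.11 in hypo-Migs against normo-Migs and -1.17 in normo-Migs against CD147KO-Migs. IRF9 was -0.65 in hypo-Migs against CD147KO-Migs, on 100 and 138 reads.

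Leukocytes are rich in immunoproteasome, so their markers were read beside it. The 10 leukocyte markers summed to 1.51 CPM with PBS, 5.09 under normo-Migs, 6.53 under hypo-Migs and 5.02 under CD147KO-Migs. TYROBP and CD3E had 0 reads in every library and PTPRC had at most 2. The marker with the most reads was CD14 with PBS (0.413 CPM) and CORO1A under hypo-Migs (2.06 CPM). By FPKM, CD14 was above CORO1A under hypo-Migs as well (1.02 against 0.421). Of the 4 leukocyte markers tested, 4, 4 and 3 were at least 1.5-fold higher under normo-, hypo- and CD147KO-Migs than with PBS, against 26.8%, 27.6% and 27.2% of all genes tested. Among those with too few reads to test, CD53 had 9 reads with PBS and 1, 0 and 0 with Migs, and CD68 had 6 with PBS and 2, 1 and 0. The endothelial list was at 31.9, 39.4, 38.3 and 42.9 CPM, almost all from EGFL7, with TIE1 and KDR at 0 in the first 3 libraries. Of its 3 genes tested, PECAM1 had 16 reads with PBS and 118, 146 and 131 with Migs (log2 fold changes of 2.76, 2.83 and 2.87), whereas CDH5 had 84 reads with PBS and 30, 72 and 59 with Migs (-1.41, -0.43 and -0.52). The fibroblast list was at 23.7, 157, 167 and 167 CPM, mostly from COL1A1, which had 20.1 CPM with PBS and 103, 99.7 and 99.1 with Migs. PDGFRB in that list had 70 reads with PBS and 1747, 2446 and 2166 with Migs (4.62, 4.87 and 4.89), and LUM had 0 reads with PBS and 49, 65 and 72. DCN was higher as well (1.74, 2.51 and 2.53), whereas COL3A1 had 27 reads with PBS and 14, 27 and 20 with Migs (-0.84, -0.20 and -0.42). The part of these genes in the PSMB9, PSME1 and PSME2 differences was not tested. In a bulk library, more cells of a kind and more RNA per cell cannot be told apart.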

How the data were processed

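RNA-seq of MHCC-97H cells was analysed from tables that the authors deposited: raw counts of reads per gene, without normalization, and FPKM, which the authors scaled by library size and gene length. The submitters' notes name CASAVA 1.8, fastp, HISAT2 2.0.5, featureCounts 1.5.0-p3 and hg38. Strand handling is not given in the sources used here. The labels name a SMARTer kit, whereas the study's methods describe poly-T selection and random hexamers. The deposited FPKM equalled reads divided by gene length and by 0.9945 to 1.021 times the reads on genes. Genes were matched by Ensembl identifier, because 15 symbols differed between the tables.

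Analyses used R 4.3.3, edgeR 4.0.16, DESeq2 1.42.0 (size factors only), Python 3.11.15, numpy 2.4.6, pandas 2.3.3, scipy 1.17.1 and matplotlib 3.10.9. TMM factors were 1.02 (PBS), 0.986 (normo-Migs), 0.996 (hypo-Migs) and 0.999 (CD147KO-Migs). Of 58735 genes, 19895 had at least 10 reads in at least 1 library. The study's criteria need replicates, so no p-value is given. Ratios of reads have exact 95% intervals (conditional binomial). A count of 0 allows 3 reads, 0.0745 CPM with hypo-Migs to 0.0885 CPM with PBS. The procedure was tested on simulated data with counting error alone and changes planted in hypo-Migs only. That checks the calculation but not the spread between cultures or the wide differences from PBS.

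Values in every library were to be given for the 6 catalytic subunits, PSME1 to PSME4, PSMF1 and any member past 1.5-fold in a pair. Of the listed partner genes, those past 2-fold with at least 50 reads in a library of the pair were named, and others named were chosen after their values were seen. Members and lists were chosen with earlier results of these data known. Alternatives concerned scaling, filters, prior counts, FPKM and length, and 1 more, members without shared exons, was added after seeing the data. Promoter windows are RefSeq's on GRCh38.p14. Protein sequences were not used here.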

Additional observations from a re-analysis of the deposited data

How the results depend on the processing

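Each condition had 1 library, so size limits and counting intervals stand in for tests, and the PBS library cannot be separated from its treatment. Of 888 values recomputed under the alternatives, 0 were classed as reversed. Only log2 fold changes of at least 1.5-fold, and changes of a ratio whose interval excluded no change, could be so classed. Counts, medians, ratios within a library and smaller fold changes could not be, so this count says nothing of them. Among proteasome genes, the log2 fold changes recomputed were those of the 6 catalytic subunits, PSME1 to PSME4 and PSMF1. Values near 0 can still change sign: PSMB5 was at 0.00 in hypo-Migs against CD147KO-Migs, with 191 and 192 CPM before TMM scaling. Of 621 values of single genes, 4 moved by more than their counting interval: PSMB9 against PBS on log2(FPKM + 1), at 1.20 under normo-Migs, 1.37 under hypo-Migs and 1.56 under CD147KO-Migs, and PSME3 under normo-Migs on reads on genes alone, at -0.16. With 1 Mig library left out in turn, the median over the others put 5 proteasome genes in every case at least 1.5-fold above PBS and 6 to 9 at least 1.5-fold below it. No paired analysis was possible because each condition had 1 library and the labels carry no replicate numbers.

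The 1 gene at least 1.5-fold lower under hypo-Migs than under CD147KO-Migs, PSMB10, became 0 among protein-coding genes with a mean of 10 CPM and among members without shared exons, neither of which holds PSMB10, and became 0 on log2(FPKM + 1). The 23 tested members that share no exon base with another gene were also counted alone. At least 1.5-fold higher than PBS were 0, 1 and 1 under normo-, hypo- and CD147KO-Migs, against 26.8%, 27.6% and 27.2% of all genes tested. At least 1.5-fold lower were 2, 4 and 3, against 21.5%, 21.1% and 21.6%. These counts were smaller because fewer genes were tested and PSMB9, PSME1 and PSME2 share exon bases. Without division by length, the ratio of PSMB8 to PSMB5 was 0.505 with PBS, 0.33 under normo-Migs, 0.344 under hypo-Migs and 0.439 under CD147KO-Migs, and that of PSMB9 to PSMB6 was 0.0334, 0.137, 0.18 and 0.19. With 1 added to FPKM, the PSMB9 to PSMB6 ratio was 0.0228, 0.0741, 0.0956 and 0.0991, and the PSMB10 to PSMB7 ratio was 0.0407, 0.0412, 0.0325 and 0.046. The PSMB10 to PSMB7 ratio was then higher under normo-Migs than with PBS, whereas without the addition it was lower (0.0317 against 0.0329).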
